A study of Mus musculus with 24 samples.

Results

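The 10 genes described here are genes of the oligodendrocyte lineage, not all of them confined to the stages before myelination. They were chosen by symbol and comprise the premyelinating genes Gpr17, Enpp6, Bcas1 and Bmp4, the precursor receptors Pdgfra and Cspg4, and the transcription factors Olig1, Olig2, Sox10 and Sox6. All 10 were found among the 37991 gene identifiers counted, and all 10 passed the filter on low counts, which 15292 genes passed. RNA came from the cerebellum of male mice of the inbred strain C57BL/6J at 7 weeks or 79 weeks of age, with no treatment or allele named in the labels. Each age had 2 RNA libraries of the series' 24 samples, and the 20 genomic samples were not analysed here. Whether the pair of libraries at each age represents different animals is not stated, although the titles mark technical replicates separately for another assay, so each p-value reflects variation among libraries that could be technical.

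Oligodendrocyte precursors are dividing glia that persist throughout the adult brain. On leaving the cycle they pass through a brief premyelinating stage, lose their precursor receptors and then either die or mature into cells that wrap axons with myelin. New oligodendrocytes are still being added in young adult mice, and fewer are made as animals age.

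The libraries held 16367656 to 22826993 gene counts. The libraries of an age differed by more than counting noise, with a chi-square per degree of freedom of 6.97 at 7 weeks and 20.2 at 79 weeks. Markers of the labelled tissue were present in each library, with the granule neuron receptor gene Gabra6 at 591 CPM (read counts relative to the TMM-scaled library total) or more, while the forebrain gene Dlx5, chosen after its values were seen, had 0 reads in all 4. Of 7 forebrain markers 4 were tested and 0 called, with Neurod6 at 6.40 to 9.27 CPM and Bcl11b at 0.917 to 1.86 CPM. The library of 79-week replicate 1 stood apart. The summed level of 10 choroid plexus markers was 5411 CPM there and 17.8 to 41.3 CPM in the other libraries (Ttr, 5061 CPM, and Kl, 100.3 CPM, led; 0 of 7 tested were called), and that of 24 genes of mature myelinating oligodendrocytes was 5434 CPM there against 6820 CPM in 79-week replicate 2 and 7532 and 7730 CPM at 7 weeks. Results are therefore also given without that library where it changes a call. A fit that leaves 1 library at an age takes its spread between libraries from the other age's pair alone. A call gained or lost in such a fit is therefore no check on a gene. A gene's level in bulk tissue falls alike whether there are fewer cells of a type or less RNA per cell, and these cannot be told apart here.

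The comparison between ages asked how far cerebellar expression of these genes differs with age. The gene of premyelinating cells Gpr17 fell at 79 weeks to 26.7% of its 7-week level, and the lineage factor gene Olig2 fell to 63.5%. Enpp6, a gene of newly formed oligodendrocytes, stood at 51.3% but missed the threshold. The precursor genes Pdgfra and Cspg4 and the factor Sox10 stood at 106%, 86.5% and 108% of their 7-week levels and were not called. In edgeR's quasi-likelihood test at an adjusted p of 0.05, 2 of the 10 genes were called, both lower, where 8.84% of all tested genes were called, 4.68% lower and 4.17% higher. The median log2 fold change of the 10 genes was -0.13, against 0.01 over all genes tested.

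**Figure D1:**
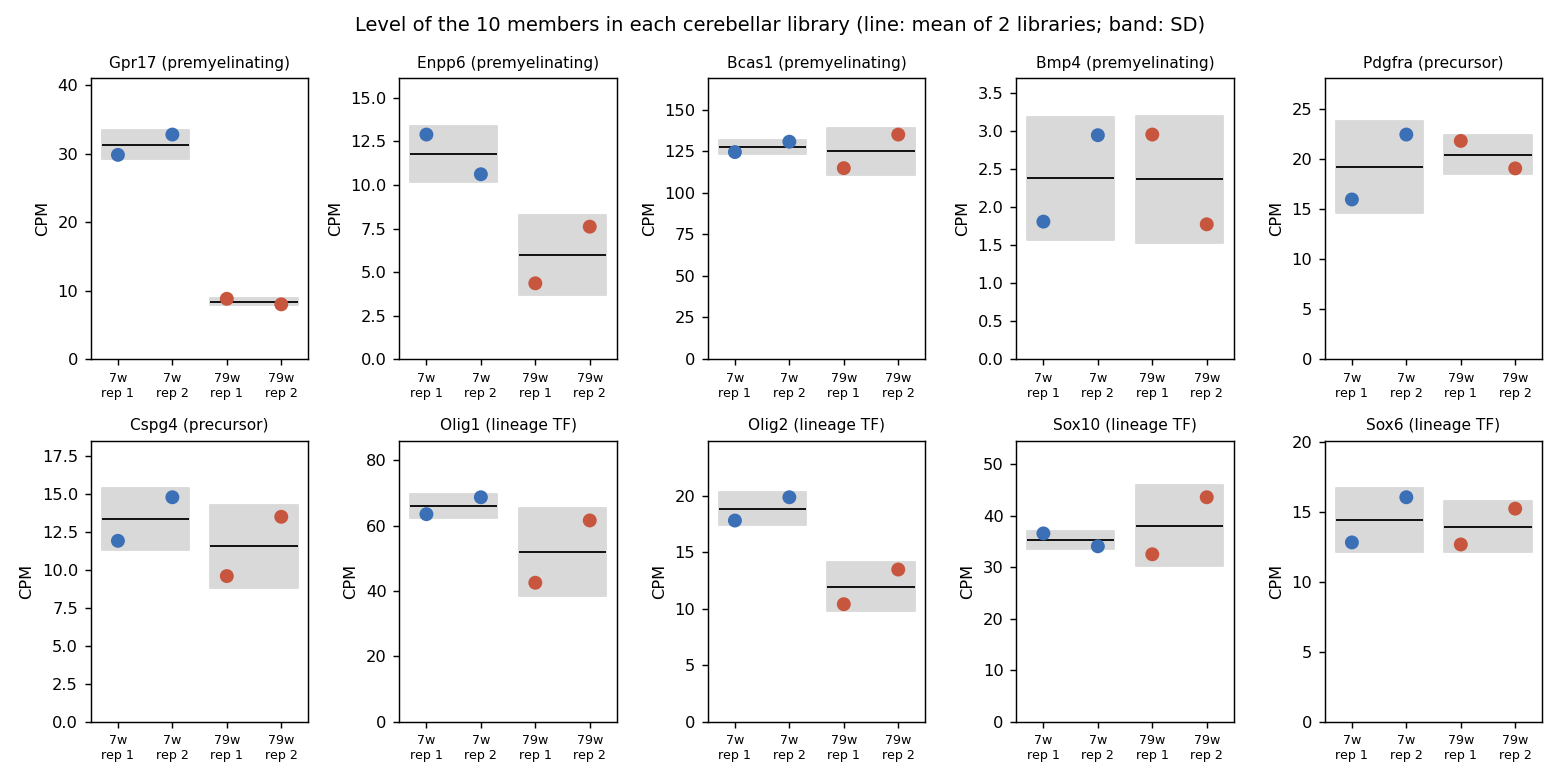
Level in CPM (vertical axis, from 0, its own scale in each panel) of each of the 10 genes in the 4 libraries, with the mean of each age as a line and its SD as a band. For Gpr17, Enpp6, Olig1 and Olig2 both 79-week libraries lie below both 7-week libraries, and for the other 6 genes the ages overlap.

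Among the premyelinating genes, Gpr17 (ENSMUSG00000052229) encodes a G protein-coupled receptor that appears as precursors commit to differentiate and is lost before myelination. Its level was 29.8 and 32.8 CPM in 7-week replicates 1 and 2 and 8.80 and 7.99 CPM in 79-week replicates 1 and 2, from 479, 680, 170 and 185 reads. The fewest reads, 170, carry a counting interval of 145 to 198 (exact Poisson, 95%), which covers counting error only. Both old libraries were low and close to each other, and the ages did not overlap, as for 28.7% of all tested genes in that direction and 57.7% in either (4 of the 10 members, all lower). The means were 31.3 ± 2.10 CPM at 7 weeks and 8.40 ± 0.573 CPM at 79 weeks (SD, n = 2). The log2 fold change was -1.90 (SE 0.11, 95% interval -2.15 to -1.65, adjusted p = 0.00113 in edgeR, n = 2 per age). Only 42 genes, or 0.275% of those tested, were called and at least 2-fold lower, and Gpr17 was the only member among them. Its value hardly moved when any library was left out, from -1.97 to -1.83. Without 7-week replicate 1, edgeR called 0 genes in all (2610 at an unadjusted p under 0.05), Gpr17 among those not called (adjusted p = 0.0825), while DESeq2 called 235 genes there, with Gpr17 among them. The RefSeq annotation places Gpr17 inside the span of Lims2, which encodes an adhesion adaptor. Whether counting used strand is not given in the sources used here, so reads of the stretch they share cannot be assigned with certainty. Lims2, named after its values were seen, stood at 8.72, 9.17, 4.76 and 8.99 CPM in the same order of libraries and was not called (adjusted p = 0.442 in edgeR).

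Enpp6 (ENSMUSG00000038173) encodes a choline phosphodiesterase that marks newly forming oligodendrocytes. It was at 12.9 and 10.6 CPM at 7 weeks and at 4.35 and 7.61 CPM at 79 weeks. The old libraries were the lower ones, but they differed from each other more than the young ones did, with the lowest level in 79-week replicate 1. The log2 fold change was -0.96 (SE 0.26, 95% interval -1.57 to -0.36, adjusted p = 0.062 in edgeR). DESeq2 called Enpp6 with all libraries (adjusted p = 0.0151). In edgeR the log2 fold change was -0.62 with 79-week replicate 1 dropped and -1.43 with 79-week replicate 2 dropped. The spread in these fits came from the 7-week pair alone. Enpp6 was not called by edgeR when 7-week replicate 1 or 2 was dropped, nor by DESeq2 when 79-week replicate 1 was dropped.

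Bcas1 (ENSMUSG00000013523) is expressed in actively myelinating cells and, at a lower level, in mature ones. It stood at 124 and 131 CPM at 7 weeks and at 115 and 135 CPM at 79 weeks. The old libraries lay on either side of the young ones. The log2 fold change was -0.03 with a 95% interval of -0.22 to 0.16 (adjusted p = 0.849 in edgeR), so a fall as large as that of Gpr17 lies outside the interval. Bmp4 (ENSMUSG00000021835), a secreted ligand made by committed precursors, had 29 and 61 reads at 7 weeks and 57 and 41 at 79 weeks, or 1.81, 2.94, 2.95 and 1.77 CPM. Its ages overlapped fully, and at this depth the interval of its log2 fold change ran from -0.89 to 0.83 (adjusted p = 0.968 in edgeR). Among the 4 premyelinating genes 1 was thus called, 1 was just short of the threshold and 2 had estimates near 0, that of Bmp4 with a wide interval. Differences between these genes were not tested.

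The precursor genes encode surface receptors. Pdgfra (ENSMUSG00000029231), the receptor through which PDGF-AA drives precursor division, was at 15.95 and 22.4 CPM at 7 weeks and at 21.8 and 19.1 CPM at 79 weeks. The old libraries lay within the range of the young ones. Its log2 fold change was 0.08 (SE 0.16, 95% interval -0.30 to 0.46, adjusted p = 0.798 in edgeR). Cspg4 (ENSMUSG00000032911) encodes the proteoglycan NG2, which precursors share with pericytes, the mural cells of capillaries. It was at 11.9 and 14.8 CPM at 7 weeks and at 9.58 and 13.5 CPM at 79 weeks, again with overlap (log2 fold change -0.21, 95% interval -0.65 to 0.23, adjusted p = 0.528 in edgeR). Pdgfra is also expressed by fibroblasts of the meninges. Of 11 meningeal and fibroblast markers 0 were called higher and 1, Col3a1, lower (5 higher without 79-week replicate 2 and 3 lower without 79-week replicate 1), and their summed level was 366 CPM in 79-week replicate 1 and 168 to 206 CPM in the other 3 libraries. Much of that gap was Igf2, a growth factor gene named after its values were seen. Igf2 was at 228.5 CPM in that library and 72.9 to 87.9 CPM in the others. The choroid plexus markers were also highest in that library, and which cells gave its Igf2 reads was not tested. Of 11 markers of pericytes and smooth muscle 0 were called, with sums of 229 to 246 CPM, and the abundant pericyte genes Rgs5 and Vtn had log2 fold changes of -0.15 and -0.05. The part of these cells in the values of Pdgfra and Cspg4 was not tested.

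**Figure D2:**
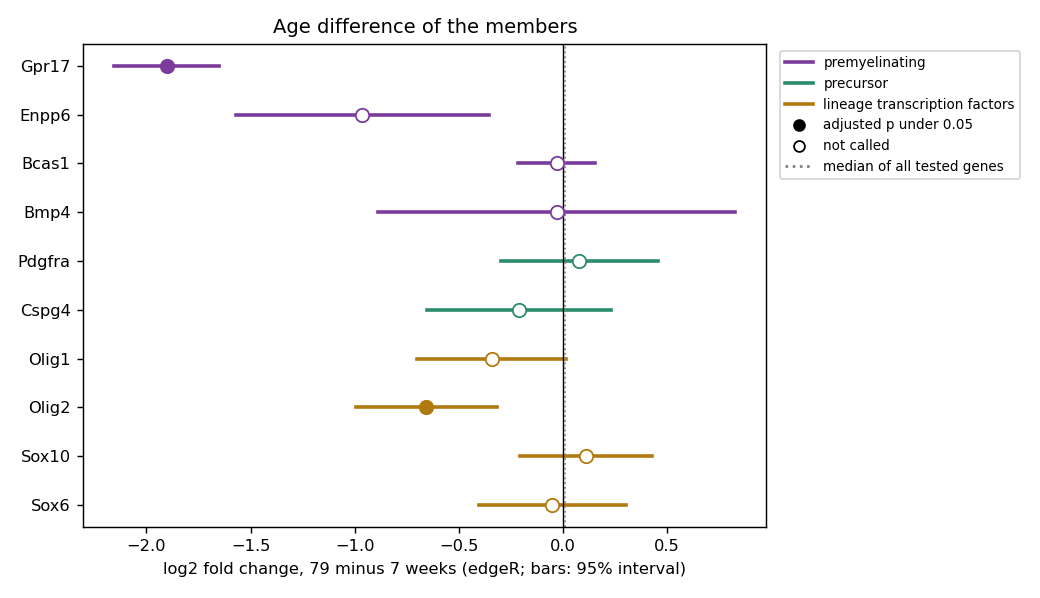
Log2 fold change of each gene at 79 against 7 weeks (horizontal axis, points) with its 95% interval derived from edgeR's F statistic (bars). Colour marks role, and points are filled where the adjusted p was under 0.05. Gpr17 at -1.90 and Olig2 at -0.66 are filled, and the intervals of Bcas1, Bmp4, Pdgfra, Cspg4, Olig1, Sox10 and Sox6 include 0.

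The transcription factor genes did not move as a block. Olig2 (ENSMUSG00000039830), a basic helix-loop-helix factor that specifies the lineage, was at 17.8 and 19.9 CPM at 7 weeks and at 10.4 and 13.5 CPM at 79 weeks. Both old libraries were below both young ones. Its estimated change was -0.66 on the log2 scale (SE 0.15, 95% interval -0.99 to -0.32, adjusted p = 0.0357 in edgeR). The call ended when 7-week replicate 1 was dropped, at -0.74 with an adjusted p of 0.188. It also ended when 7-week replicate 2 was dropped, at -0.58 with an adjusted p of 0.210. The log2 fold change of Olig2 was -0.49 with 79-week replicate 1 dropped and -0.87 with 79-week replicate 2 dropped. DESeq2 did not call Olig2 with either of these old libraries dropped. Its relative Olig1 (ENSMUSG00000046160), which acts in maturation and lies next to Olig2 in the genome, was at 63.5 and 68.7 CPM at 7 weeks and at 42.5 and 61.6 CPM at 79 weeks. Its old libraries were also the lower ones, but 79-week replicate 2 was close to the young libraries. The log2 fold change was -0.34 (95% interval -0.70 to 0.02, adjusted p = 0.206 in edgeR), and it depended on the old library used. It was -0.10 with 79-week replicate 1 dropped and -0.64 with 79-week replicate 2 dropped.

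Sox10 (ENSMUSG00000033006), needed at all stages from precursor to myelinating cell, was at 36.6 and 34.1 CPM at 7 weeks and at 32.5 and 43.6 CPM at 79 weeks. The old libraries held both the lowest and the highest level. A log2 fold change of 0.11 was estimated (SE 0.14, 95% interval -0.20 to 0.43, adjusted p = 0.644 in edgeR). Dropping 79-week replicate 1 gave 0.31 and dropping 79-week replicate 2 gave -0.12, so its direction rested on which old library was used. Sox6 (ENSMUSG00000051910), which holds precursors in the immature state and is also found in some neurons, was at 12.8 and 16.1 CPM at 7 weeks and at 12.7 and 15.3 CPM at 79 weeks (log2 fold change -0.05, 95% interval -0.40 to 0.30, adjusted p = 0.862 in edgeR).

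In 79-week replicate 1, the library with choroid plexus RNA and low myelin gene levels, Enpp6, Bcas1, Cspg4, Olig1, Olig2, Sox10 and Sox6 were lower than in 79-week replicate 2, while Gpr17, Bmp4 and Pdgfra were higher. The median member stood -0.31 from its 7-week mean on the log2(CPM + 0.5) scale in replicate 1 and -0.05 in replicate 2, where the mature myelin genes stood at -0.59 and -0.12. What this difference between the old libraries contributed to the age differences was not tested.

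Promoter windows from RefSeq (build GRCm38.p6, 250 bases before to 50 after a start site) were found for 6 of the 10 genes. Shown are those of Olig2, the called gene with a window, of Enpp6, the other gene with a large difference, and of Pdgfra, a precursor gene with none. Capitals mark matches, on either strand, to AACAAT or ACAATG, of the kind bound by SOX proteins, and to the E-boxes CAGCTG or CATCTG, of the kind bound by helix-loop-helix factors. ACAAAG, also searched, had no match in these 3 windows. The windows are Olig2 at chr16:91225300-91225599, Enpp6 at chr8:46986637-46986936 and Pdgfra at chr5:75152001-75152300, all on the plus strand.
Olig2: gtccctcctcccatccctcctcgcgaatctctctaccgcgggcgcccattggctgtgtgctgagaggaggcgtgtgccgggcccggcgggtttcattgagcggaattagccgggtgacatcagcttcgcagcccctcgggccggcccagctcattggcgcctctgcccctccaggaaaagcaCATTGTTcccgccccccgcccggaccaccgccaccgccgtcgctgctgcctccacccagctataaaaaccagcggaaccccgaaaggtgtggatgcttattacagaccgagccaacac
Enpp6: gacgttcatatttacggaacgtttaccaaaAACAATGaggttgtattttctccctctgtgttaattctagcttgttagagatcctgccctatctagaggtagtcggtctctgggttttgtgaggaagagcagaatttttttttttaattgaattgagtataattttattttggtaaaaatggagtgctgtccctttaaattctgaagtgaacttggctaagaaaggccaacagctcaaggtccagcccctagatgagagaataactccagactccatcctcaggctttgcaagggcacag
Pdgfra: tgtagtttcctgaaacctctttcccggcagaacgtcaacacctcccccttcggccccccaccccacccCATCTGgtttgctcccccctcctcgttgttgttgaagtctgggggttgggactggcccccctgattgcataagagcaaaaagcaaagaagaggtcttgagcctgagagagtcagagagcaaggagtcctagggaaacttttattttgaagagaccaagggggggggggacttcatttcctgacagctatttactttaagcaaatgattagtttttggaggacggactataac

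The Olig2 and the Enpp6 window each held AACAAT and ACAATG overlapping in a single run, on the minus strand in Olig2 and on the plus strand in Enpp6. The Pdgfra window held only a CATCTG. Among 32851 RefSeq windows of the same length, 10.7% held AACAAT, 12.6% held ACAATG, 18.7% held ACAAAG, 16.3% held CAGCTG and 17.2% held CATCTG. Such matches are common and describe the sequence only. Of the other windows, those of Bmp4 and Cspg4 held none of the motifs, whereas 5 of the 6 windows of Sox6, which was not called, held 1 to 5 matches each, including matches of the SOX kind.

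Within a library the ratio of a member to Sox10 does not depend on library size. The log2 ratio of Gpr17 to Sox10 reads was -0.29 and -0.05 at 7 weeks and -1.88 and -2.44 at 79 weeks, a difference of -1.99. For Enpp6 to Sox10 it was -1.50 and -1.68 at 7 weeks and -2.89 and -2.51 at 79 weeks, a difference of -1.11. In both, the ages did not overlap (two-sided exact permutation p = 0.333, the smallest that 2 against 2 libraries allow). The differences for Bcas1, Bmp4 and Pdgfra were -0.13, -0.11 and 0.01, with overlap between ages (exact permutation p = 0.667, 1 and 0.667). None of these 5 ratios can pass 0.05 in this design, also after adjustment over the 5. With Olig2 in place of Sox10, the differences were -1.23 for Gpr17 and -0.35 for Enpp6, and 0.63, 0.65 and 0.77 for Bcas1, Bmp4 and Pdgfra. Olig2 was itself called lower (log2 fold change -0.66), and that fall enters each ratio to it.

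**Figure D3:**
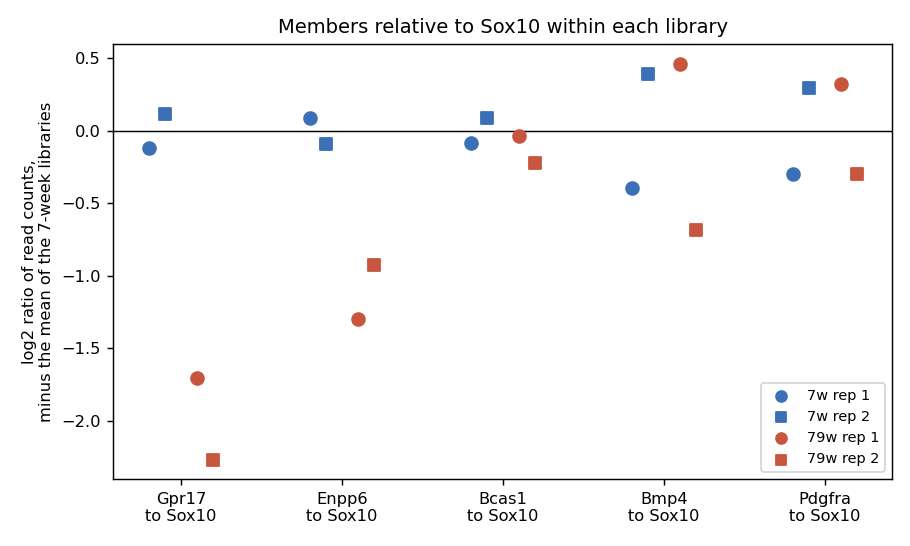
Log2 ratio of the reads of 5 genes to those of Sox10 in each library, minus the mean of the 7-week libraries (vertical axis), with colour for age and marker shape for replicate. For Gpr17 and Enpp6 both old libraries lie below both young ones, with mean differences of -1.99 and -1.11, and for Bcas1, Bmp4 and Pdgfra the ages overlap.

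Other genes of the same stages were taken from lists. Over all tested genes 4.68% were called lower and 4.17% higher with all libraries, against which the counts per list can be read. Of 18 tested genes of committed and newly formed oligodendrocytes 4 were lower, 0 higher and 14 not called (median log2 fold change -0.12). Tmem163, a zinc transporter gene, fell by 0.55, Fyn, a kinase gene of the myelination pathway, fell by 0.28, Tns3, an adhesion adaptor gene of new oligodendrocytes, fell by 0.41, and Ctps, a gene of CTP synthesis, fell by 0.37 on the log2 scale (adjusted p = 0.0103, 0.0188, 0.0338 and 0.0435 in edgeR). Ctps was not called by DESeq2 (adjusted p = 0.104), with library size scaling, or in edgeR with 79-week replicate 1 dropped (-0.34, adjusted p = 0.0755). The list had 0 genes called lower when 7-week replicate 1 was dropped and 1 when 7-week replicate 2 was. Many of these genes are also expressed by neurons and other glia in the cerebellum.

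Of 13 other precursor markers 2 were lower, 0 higher and 11 not called (median -0.23). Neu4, a sialidase gene of precursors and committed cells, went from 6.36 and 7.34 CPM to 3.21 and 3.67 CPM (log2 fold change -0.99, SE 0.21, adjusted p = 0.0306 in edgeR). Gpr37l1, a receptor gene that Bergmann glia and astrocytes also express, fell by 0.25 (adjusted p = 0.0405 in edgeR), and lost its call with library size scaling. Neither was called when either 7-week library was dropped, and 4 markers of the list were called lower without 79-week replicate 1.

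Of 16 other transcription regulators of the lineage 1 was higher, 0 lower and 15 not called, and with either old library dropped 2 were higher. Chd7, a chromatin remodeller, rose from 341 and 371 CPM to 476 and 499 CPM (log2 fold change 0.45, SE 0.06, adjusted p = 0.0106 in edgeR), though edgeR did not call it when 7-week replicate 1 or 2 was dropped, with adjusted p of 0.124 and 0.0546. Chd7 is also abundant in granule neurons, the most numerous cells of the tissue.

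The ligands and effectors around the members were nearly all uncalled. Pdgfa, the ligand of Pdgfra, was at 22.1 and 26.0 CPM at 7 weeks and 27.9 and 22.9 CPM at 79 weeks, and 0 of 6 genes of the PDGF system were called. The pericyte receptor gene Pdgfrb had a log2 fold change of 0.03. In the BMP pathway, to which Bmp4 belongs, 1 of 22 tested genes was lower and 0 were higher, against 3 lower with 79-week replicate 1 dropped and 5 higher with 79-week replicate 2 dropped. The member called was the receptor gene Bmpr2, which fell by 0.43 on the log2 scale (adjusted p = 0.0252 in edgeR), though it was at -0.52 and -0.33 and not called when 7-week replicate 1 or 2 was dropped, with adjusted p of 0.117 and 0.145. The targets Id1, Id2, Id3 and Id4, inhibitors of helix-loop-helix factors such as Olig2, had log2 fold changes of 0.33, -0.04, 0.71 and 0.16 and were not called. The BMP antagonist Nog was at 8.66 and 8.45 CPM at 7 weeks and at 7.30 and 5.23 CPM at 79 weeks. It was not called with all libraries (adjusted p = 0.205 in edgeR). Its log2 fold change was -0.45 with all libraries and -0.71 without 79-week replicate 1.

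Mature myelin genes gave a comparison at the next stage. Of 24 tested genes 6 were lower, 1 higher and 17 not called, with a median log2 fold change of -0.30. Tspan2 and Cldn11, membrane proteins of the myelin sheath, fell by 0.62 and 0.91, Mal fell by 0.75, and Apod, a lipid carrier, rose by 0.43 on the log2 scale (adjusted p = 0.00328, 0.00903, 0.0136 and 0.00936 in edgeR). The largest fall among these 24, -0.91, was smaller than that of Gpr17, whose 95% interval ended at -1.65. Dropping 79-week replicate 1, the library with low myelin gene levels, gave 6 lower and 2 higher. Dropping 79-week replicate 2 gave 16 lower, dropping 7-week replicate 1 gave 0, and dropping 7-week replicate 2 gave 1. Of 12 astrocyte and Bergmann glia markers 2 were lower and 2 higher, and 0 were called with either 7-week library dropped and 5 were lower with 79-week replicate 2 dropped. Gfap, a filament gene of astrocytes, rose by 0.66 and Aldh1l1 rose by 0.34, while Fabp7 fell by 0.87 and the glutamate transporter gene Slc1a3 fell by 0.25 on the log2 scale. Of 10 cerebellar neuron markers 6 were lower and 0 higher (0 lower without 7-week replicate 1 and 2 without 7-week replicate 2), among them Gabra6, Cbln1, Car8 and Neurod1, which fell by 0.57, 0.39, 0.39 and 0.31.

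**Figure D4:**
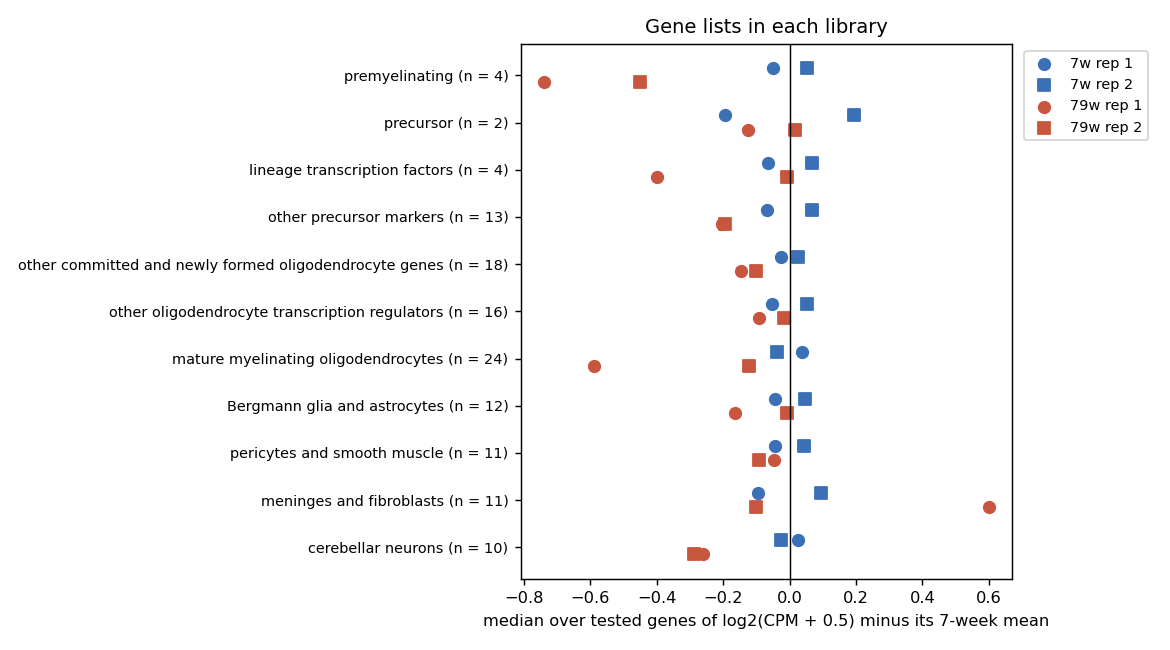
Median over the tested genes of each list of log2(CPM + 0.5) minus the gene's 7-week mean (horizontal axis), for each library, by colour for age and shape for replicate. The 4 premyelinating genes stand at -0.74 and -0.45 in the old libraries, 24 mature myelin genes at -0.59 and -0.12, and 2 precursor genes at -0.12 and 0.02. The premyelinating median lies between Gpr17 and Enpp6, with log2 fold changes of -1.90 and -0.96, and Bcas1 and Bmp4, each at -0.03.

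Precursors are the main dividing cells of the adult brain. Of 16 cell cycle genes 11 were tested, 1 was higher, 0 lower and 10 not called. Mcm6, part of the replicative helicase, went from 4.17 and 5.26 CPM to 8.70 and 8.69 CPM (adjusted p = 0.033 in edgeR), a call that ended when either 7-week library was dropped, while 2 genes were higher without either old library in turn. The division marker gene Mki67, named after its value was seen, was at 0.872 and 0.579 CPM at 7 weeks and 0.311 and 0.432 CPM at 79 weeks. It was not called (adjusted p = 0.299 in edgeR) and lay near the 0.130 to 0.187 CPM that 3 reads would give. Of the 11 tested cell cycle genes, 4 had a log2 fold change below 0, and the median was 0.10. The values ran from -1.47 for Top2a to 1.03 for Tyms, neither called (adjusted p = 0.109 and 0.0541 in edgeR). Both were named after their values were seen. Top2a had 14 and 15 reads at 7 weeks and 5 and 7 reads at 79 weeks.

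The genes whose pattern over the 4 libraries was most like that of Gpr17, out of 11522 others with a mean of at least 5 CPM, were Tnc, Mir670hg, Gcnt1, Col23a1 and Col3a1. Likeness was the Euclidean distance between centred log2(CPM + 0.5) values, which ran from 0.26 for Tnc to 0.58 for Col3a1. Tnc encodes the matrix protein tenascin C, Col23a1 and Col3a1 encode collagens, and Gcnt1 an enzyme of O-glycan branching. Among the members, Enpp6 was the nearest at 1.11, place 48, followed by Olig2 at 1.24, place 96. Sox10 was the farthest at 1.98. With 4 libraries this describes shared levels only.

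**Figure D5:**
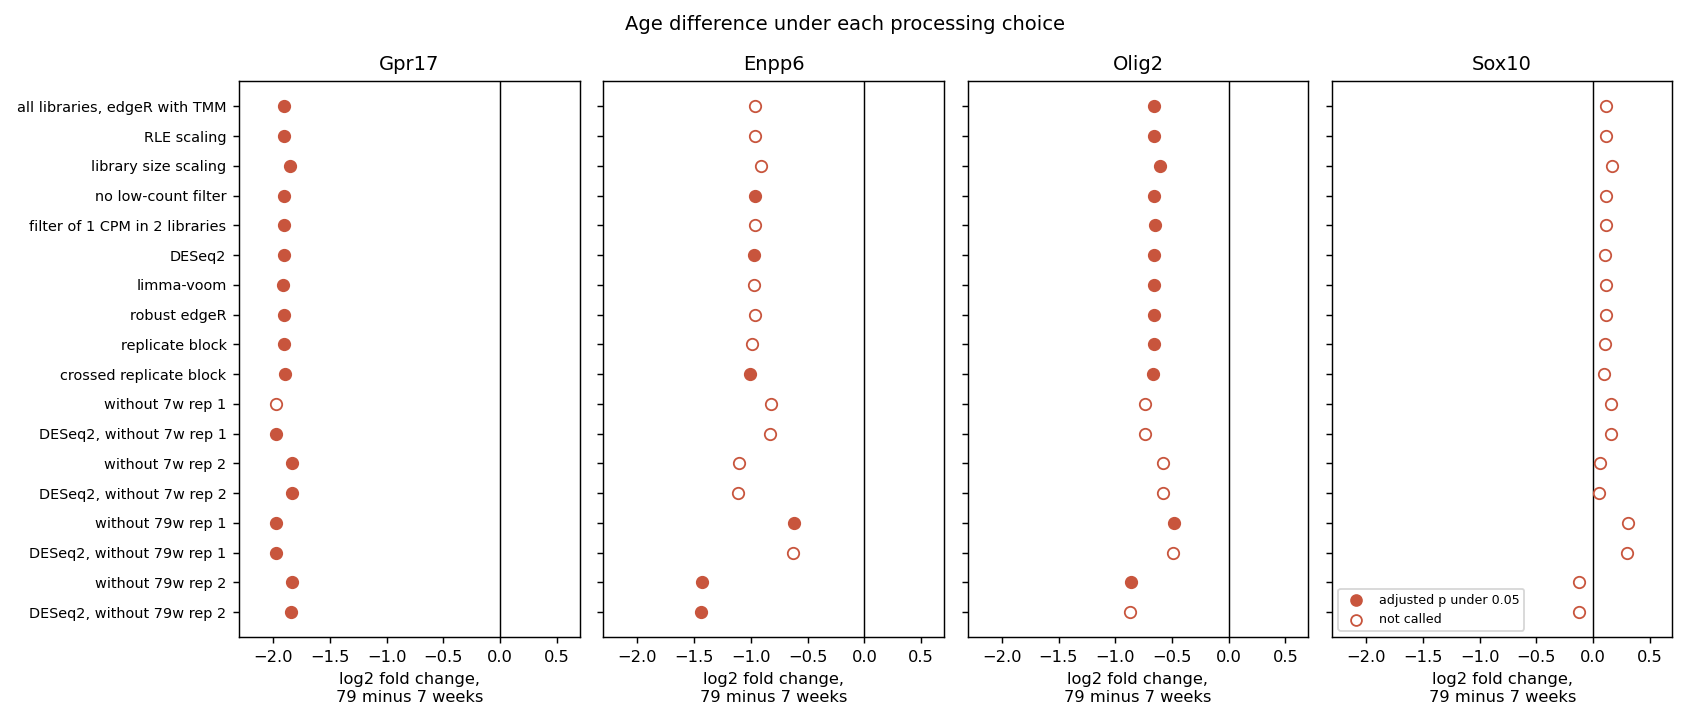
Log2 fold change at 79 against 7 weeks (horizontal axis) of Gpr17, Enpp6, Olig2 and Sox10 with all libraries in edgeR and under each of 17 other processing choices (rows), filled where the adjusted p was under 0.05. Gpr17 was filled under 16 of the 17 and Olig2 under 11, Enpp6 under 6, and Sox10 under 0, with Sox10 below 0 under 2.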

How the data were processed

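Per the labels, Trizol was used for the cerebellar RNA and the Universal Plus mRNA-Seq kit for sequencing libraries. The authors deposited unnormalised counts of reads for each Ensembl gene. The submitters' processing notes name cutadapt, STAR and HTSeq and the build mm9 without versions. Which annotation release and strand setting were used is not given in the sources used here. HTSeq summary lines were removed before totals were taken. Of 37991 identifiers, 32919 had a symbol.

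Analyses ran in R 4.3.3 with edgeR 4.0.16 (filterByExpr, minimum count 10 and minimum total 15, TMM scaling, quasi-likelihood F test, 79 minus 7 weeks, no covariates), with Benjamini-Hochberg adjustment over the 15292 tested genes and a threshold of 0.05. The common coefficient of variation was 9.43%. CPM are TMM-scaled and not divided by gene length, so no test compares levels between genes, and where a list's genes are ranked or summed by CPM, longer genes weigh more. Means carry the SD over 2 libraries, and log2 fold changes a standard error. Ratios of reads used a pseudocount of 1 read. The test was checked on simulated data. Alternatives used limma 3.58.1 and DESeq2 1.42.0, other scalings and filters, a replicate block, and fits that omit 1 library. DESeq2 fits omitting 1 library and a crossed block were added after the data were seen.

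The members and the 13 other lists (177 genes, of which 175 were found) were chosen with earlier results of these data known. Named are all members, up to 4 called genes per list (those of lowest adjusted p) or else the 2 most abundant, the genes Pdgfa, Nog and Id1 to Id4, and the 5 genes most like Gpr17. Genes named outside this rule are said to have been chosen after their values were seen.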

Additional observations from a re-analysis of the deposited data

How the results depend on the processing

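The precision rests on 2 libraries per age. Of the 10 members, Gpr17 was lower in each of 17 alternatives and called in 16, from -1.97 to -1.83 on the log2 scale. Olig2 was lower in each and called in 11 (-0.87 to -0.49), Enpp6 was lower in each and called in 6 (-1.44 to -0.62), and Olig1 was lower in each and called in 3 (-0.64 to -0.10). Bcas1, Bmp4, Pdgfra, Cspg4, Sox10 and Sox6 were called in 0 of the 17, and each changed sign in at least 1. Low depth limits Bmp4 most, at 29 to 61 reads a library.

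Over all genes 1352 were called, 637 higher and 715 lower, and with library size scaling 901 higher and 484 lower. With no low-count filter 3051 of 23285 tested genes were called, against 1352 of 15292, so calls were more frequent over all genes too. There 4 members were called against 2. Leaving out a library in edgeR gave 0 to 2425 genes and 0 to 4 members. The lowest of each came without 7-week replicate 1, and the highest without 79-week replicate 2. In DESeq2, an alternative added after the data were seen, leaving out 7-week replicate 1, 7-week replicate 2, 79-week replicate 1 or 79-week replicate 2 gave 235, 421, 379 and 654 genes, and 1, 1, 1 and 3 members. Each fit that left out a library took its spread between libraries from the pair of the other age. What this did to the counts was not tested.

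The replicate numbers are not stated to pair libraries, and the correlation over genes between same-numbered deviations was -0.11. With the replicate block 1396 genes and 2 members were called, and the crossed pairing, added after the data were seen, gave 2014 genes and 3 members. Other precursor markers called lower rose from 2 to 4 with the replicate block.

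With Olig2 as the reference in place of Sox10, the ratio differences moved to -1.23 for Gpr17, -0.35 for Enpp6, 0.63 for Bcas1, 0.65 for Bmp4 and 0.77 for Pdgfra. The fall of Olig2 itself enters each of these. The differences relative to Sox10 kept within the spread of libraries with a pseudocount of 0.5 or 5 reads. With 2 libraries per age, leaving 1 out cannot move a difference beyond that spread, so it is no check. With 79-week replicate 1 or 2 left out, the difference was -2.27 and -1.71 for Gpr17 and -0.92 and -1.30 for Enpp6. For Bmp4 and Pdgfra the sign depended on which library was left out.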

Other observations

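The list genes below were not called and were chosen after their values were seen. For Zfp488 and Sox11 the ages did not overlap, as for 28.7% of all tested genes in that direction and 57.7% in either. Zfp488, a transcription regulator of oligodendrocyte differentiation, was at 3.302 and 2.99 CPM at 7 weeks and at 1.76 and 1.21 CPM at 79 weeks (log2 fold change -1.09, SE 0.30, adjusted p = 0.068 in edgeR). Sox11, a factor of immature cells, was at 1.81 and 2.12 CPM and then at 1.09 and 1.04 CPM (adjusted p = 0.123 in edgeR). Nkx2-2, a factor of committed precursors, was at 12.2 and 10.7 CPM at 7 weeks and at 12.1 and 13.1 CPM at 79 weeks, with overlap. Casr, a calcium-sensing receptor gene of newly formed oligodendrocytes, did not pass the low-count filter, with 8 and 13 reads at 7 weeks and 4 and 1 reads at 79 weeks.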
